A study of Mus musculus with 24 samples.

Results

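The genes described here encode the integrin subunits and the proteins that couple integrins to the actin cytoskeleton at focal adhesions. They were chosen by symbol: every integrin alpha and beta subunit, and 17 focal adhesion genes given by name. The rule gave 43 genes, of 35022 gene entries in the table of the PD03 removal experiment and 48709 in that of the CHIRON removal experiment. By role they were 18 alpha subunits, 8 beta subunits, 7 linkers to actin (talins, vinculin, alpha-actinins and tensins), 5 genes of the kindlin and Ilk group and 5 kinases or adaptors.

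The measurements were RNA-seq read counts from E14 mouse embryonic stem cells, an established line labelled as wild type of the 129m background. All cells were plated on StemBond hydrogels, polyacrylamide gels with covalently bound matrix protein, here coated with fibronectin and made soft or stiff. All cells first spent 12 h in 2i+LIF, which holds PD03 (1 µM, an inhibitor of MEK, the kinase upstream of ERK), CHIRON (3 µM, an inhibitor of the kinase GSK3) and the cytokine LIF. In the PD03 removal experiment the medium was then changed to CHIRON+LIF, and in the CHIRON removal experiment to PD03+LIF, for 2 or 12 h, while the 0 h controls were taken in 2i+LIF. Each of the 12 groups of experiment, substrate and time had 2 libraries. No library was kept in 2i+LIF for a further 2 or 12 h. In every comparison of times, removal therefore cannot be told apart from the medium change or the longer time on the gel. Every library came from this single cell line, and fibronectin was the only coating, so neither other lines nor other matrix proteins are covered.

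Integrins are transmembrane receptors made of an alpha and a beta subunit, and the pair decides which matrix protein is bound. Talin and the kindlins bind the beta subunit's tail and activate the receptor. Vinculin, alpha-actinin and the tensins then tie the complex to actin, while focal adhesion kinase, Src and the adaptors paxillin, Bcar1 and zyxin carry signals from it. In mouse embryonic stem cells, integrins that contain the beta 1 subunit are the main receptors for fibronectin and laminin.

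Total counts ran from 16222196 to 26442153 per library in the PD03 removal experiment. In the CHIRON removal experiment 11 libraries held 19393787 to 31111260 counts, while stiff 2 h replicate 1 held 171333 and was left out, so that stiff 2 h rests there on 1 library that is assumed to vary like the others. The members took 0.181% to 0.202% of the counts in the first experiment and 0.269% to 0.313% in the second. All 8 embryonic stem cell markers were present, with summed levels of 5678 to 7162 CPM (counts scaled by library size and composition) and 5105 to 5618 CPM. Markers of fibroblasts summed to 9.35 to 13.3 CPM and 12.8 to 27.5 CPM, those of primitive endoderm to 2.01 to 3.92 CPM and 9.55 to 15.5 CPM, and those of megakaryocytes or platelets to at most 0.360 CPM and 0.510 CPM with Gp9 at 0. Over the 12 h of PD03 removal the embryonic stem cell markers went from 6867 to 7019 CPM at 0 h to 5678 to 6053 CPM, the trophoblast markers from 18.5 to 22.7 CPM to 34.4 to 41.3 CPM, and the leukocyte markers, with Lyz2 at 0, from 140.2 to 160 CPM to 175 to 188 CPM; the part of these shifts in the members' changes was not tested. In the CHIRON removal experiment the leukocyte markers, with Tyrobp and Lyz2 at 0, summed to 305 to 370 CPM and were lower at 12 h (304.6 to 313 CPM) than at 0 h (317 to 366 CPM). The trophoblast markers there went from 24.1 to 27.2 CPM at 0 h to 27.2 to 35.2 CPM at 12 h, and the fibroblast markers from 17.3 to 19.3 CPM to 12.8 to 15.4 CPM, and the part of these shifts was not tested either. In bulk RNA, fewer cells of a type and less RNA per cell cannot be told apart.

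Integrin and adhesion genes spanned a wide range of levels at 0 h. After the filter on low counts, 33 members of 13405 genes were tested in the PD03 removal experiment and 36 of 14615 in the CHIRON removal experiment. Levels between genes are given as CPM per kilobase of exon and as the range over the 4 libraries at 0 h. In the PD03 removal experiment Itgb1, the beta subunit shared by the fibronectin and laminin receptors, was the highest member at 41.8 to 47.5. Its libraries did not overlap those of the next member, Tln1 (talin), at 30.8 to 34.5. Src, a tyrosine kinase, followed at 29.8 to 31.9, Actn1 (alpha-actinin) at 28.7 to 30.4 and Tns3 (a tensin) at 25.5 to 30.8, and these neighbours overlapped. Among beta subunits Itgb5 came second at 22.4 to 26.3, well above Itgb7 at 1.41 to 2.04 and Itgb3 at 0.907 to 1.13. Among alpha subunits Itga6, the partner of Itgb1 in the laminin receptor, was highest at 15.02 to 15.9, followed without overlap by Itgav at 9.76 to 10.2 and Itga5, the alpha chain of the classical fibronectin receptor, at 7.46 to 7.86. Zyx (zyxin, which is recruited to adhesions and stress fibres) was low, at 0.710 to 0.892. This order depends on the division by exon length. In plain CPM, over all libraries of this experiment, Tln1 at 282 to 379 and Tns3 at 285 to 453 stood above Itgb1 at 156 to 209.

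The table of the CHIRON removal experiment was made separately, so no level was compared across the experiments. There Actn4 at 108 to 114 and Actn1 at 103 to 114, both alpha-actinins, were highest and overlapped. Tln1 at 36.2 to 46.0, Itgb1 at 27.9 to 31.7 and Vcl (vinculin) at 27.6 to 33.5 came next. Itga5, at 23.6 to 26.2, was the highest alpha subunit and did not overlap Itga3 at 11.0 to 12.6 or Itga6 at 10.9 to 12.198, which overlapped each other. Itgb3 was low, at 0.709 to 0.951, and Itga1, the alpha chain of a collagen receptor, was lower still at 0.0204 to 0.0317.

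**Figure D1:**
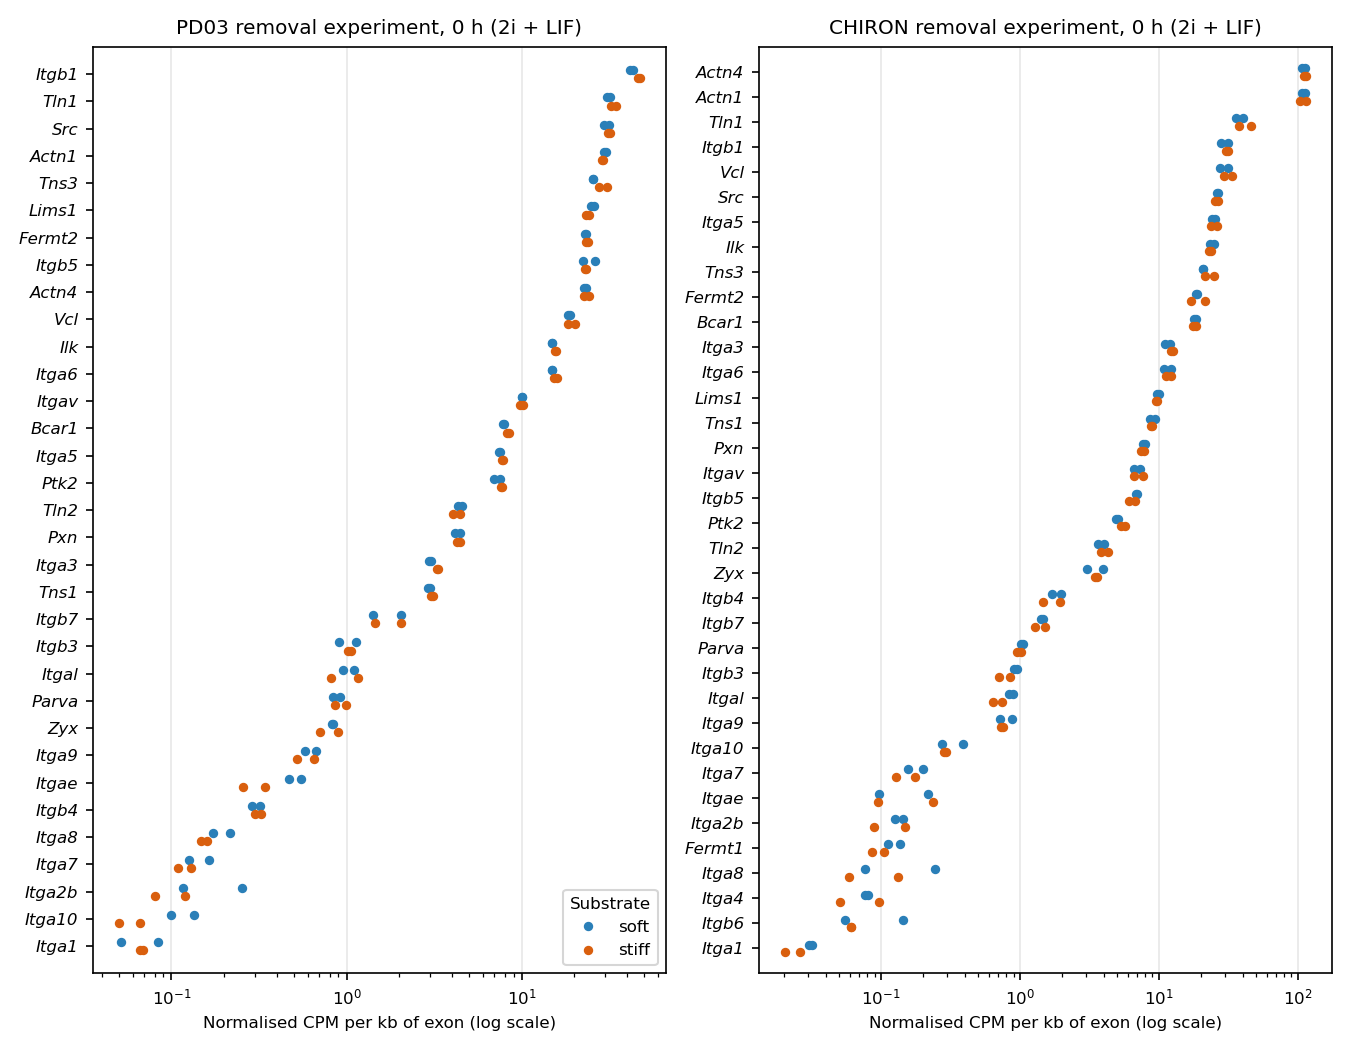
Level of each tested member at 0 h, as CPM per kilobase of exon on a log axis, in the PD03 removal and the CHIRON removal experiments; each point is a library, soft in blue and stiff in orange. Itgb1 at 41.8 to 47.5 leads the first experiment and Actn4 at 108 to 114 the second, while Itga1 is near the bottom of both.

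The members left out by the filter were mostly leukocyte and collagen receptor subunits. In the PD03 removal experiment these were Itga2, Itga4, Itga11, Itgad, Itgam, Itgax, Itgb2, Itgb6, Itgb8 and Fermt1, none above 9 counts in any library. Itgb6 and Itgb8 had 0 counts in all 12 libraries, which allows up to 3 counts, or 0.173 CPM, in a library such as soft 0 h replicate 1. In the CHIRON removal experiment they were Itga2, Itga11, Itgad, Itgam, Itgax, Itgb2 and Itgb8, again with at most 9 counts. No statement on change is made for these genes.

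The comparison of 2 h with 0 h asks which members moved soon after the MEK inhibitor was withdrawn. No integrin subunit passed the threshold, and the genes that did were 3 actin linkers and the adaptor Zyx. Zyx, Vcl and Tns3 rose on both substrates, and Actn4 rose on the stiff one. On soft, 3 of 33 tested members were called, all higher, where 1.96% of all genes tested were called in either direction and 1.31% higher. On stiff, 4 of 33 were called, all higher, where 2.73% of all genes were called and 1.84% higher. The members' median log2 fold change was 0.03 on soft and 0.04 on stiff, against -0.00 for all genes in each.

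These 4 genes were the members called at 2 h after PD03 removal on either substrate. ERK is known to act on serum response factor (SRF), AP-1 and EGR1. The sequence before the RefSeq transcription start of each gene is therefore shown. Each is the longest stretch of the RefSeq window of 250 bases before the start that lies outside every annotated exon, from GRCm38.p6, read 5′ to 3′ on the gene's own strand. Distances are counted from the RefSeq start, which for Zyx lies within the gene as GENCODE M21 annotates it, so that the Zyx stretch is inside that gene's span and between its exons. Capitals mark a match to a motif.

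Zyx, chr6:42349706-42349779, plus strand: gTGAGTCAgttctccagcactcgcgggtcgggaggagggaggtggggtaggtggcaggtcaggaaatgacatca
Vcl, chr14:20929148-20929397, plus strand: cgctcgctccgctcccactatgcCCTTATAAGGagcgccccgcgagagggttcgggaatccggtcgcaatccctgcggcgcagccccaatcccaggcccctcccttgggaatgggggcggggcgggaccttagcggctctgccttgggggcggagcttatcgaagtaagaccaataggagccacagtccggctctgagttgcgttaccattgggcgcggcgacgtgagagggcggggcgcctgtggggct
Tns3, chr11:8664536-8664785, minus strand: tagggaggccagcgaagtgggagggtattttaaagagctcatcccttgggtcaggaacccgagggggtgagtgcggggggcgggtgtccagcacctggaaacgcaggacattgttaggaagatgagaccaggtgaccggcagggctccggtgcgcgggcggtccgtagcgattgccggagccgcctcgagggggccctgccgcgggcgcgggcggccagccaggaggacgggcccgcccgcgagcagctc
Actn4, chr7:28962341-28962582, minus strand: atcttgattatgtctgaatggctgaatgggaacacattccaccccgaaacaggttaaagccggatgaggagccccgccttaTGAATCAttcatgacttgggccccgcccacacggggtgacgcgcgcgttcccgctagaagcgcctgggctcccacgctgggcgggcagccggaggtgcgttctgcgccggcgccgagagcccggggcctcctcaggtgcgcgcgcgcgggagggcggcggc

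Motifs were searched on both strands in the 250 bases before the start of 32851 RefSeq promoters. They were the CArG box of SRF, TGANTCA for AP-1 and GCGGGGGCG for EGR1, and they were chosen with the 4 genes known. The Vcl stretch held a CArG box, CCTTATAAGG, 227 to 218 bases before the start, a motif found in 1.47% of all promoters. Actn4 held the AP-1 letters TGAATCA at 169 to 163 bases and Zyx held TGAGTCA at 121 to 115 bases before the RefSeq start, and 6.75% of promoters held an AP-1 match. Zyx also held GCGGGGGCG at 14 to 6 bases, outside the stretch shown, where 2.57% of promoters held an EGR1 match. The Tns3 window held none of these letters. The 31 members in the RefSeq promoter table had 37 promoters, 3 of which held each motif, and the other holders were Fermt2 and Itgb6 for the CArG box, Itgax for AP-1, and Actn1 and Src for EGR1. Of these Fermt2, Actn1 and Src were tested at 2 h after PD03 removal and were not called, with log2 fold changes from -0.03 to 0.06. A match describes the letters and says nothing of binding in these cells.

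Zyx (chr6:42349630-42360213, GRCm38, plus strand) gave 4.43 and 4.50 CPM in the soft libraries at 0 h and 7.63 and 6.36 CPM at 2 h. On stiff it gave 4.81 and 3.83 CPM at 0 h and 9.72 and 9.43 CPM at 2 h. On each substrate both 2 h libraries lay above both 0 h libraries, and the 2 h libraries on stiff lay above those on soft, a difference that did not pass the test (-0.45, edgeR adjusted p = 0.37). The log2 fold change was 0.65 ± 0.18 (SE, n = 2 libraries a group; edgeR adjusted p = 0.046) on soft and 1.16 ± 0.16 (edgeR adjusted p = 1.8e-05) on stiff. The soft call was lost whenever 1 of its 4 libraries was left out, with edgeR adjusted p from 0.0669 to 0.391, and with DESeq2 at 0.152; over all alternatives the adjusted p ran from 0.0263 to 0.391.

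Vcl (chr14:20929398-21033676, plus strand) gave 155 and 151 CPM on soft at 0 h and 184 and 193 CPM at 2 h. On stiff it gave 152 and 166 CPM at 0 h and 181 and 203 CPM at 2 h. All 2 h libraries were above all 0 h libraries. Its log2 fold change was 0.30 ± 0.055 on soft (edgeR adjusted p = 0.0012) and 0.27 ± 0.054 on stiff (edgeR adjusted p = 0.0028). Leaving out stiff 0 h replicate 1 or stiff 2 h replicate 2 gave an adjusted p of 0.131 or 0.149, in a range over alternatives from 6.5e-05 to 0.149. Without soft 2 h replicate 2 the soft value was 0.0503, in a range from 8.75e-06 to 0.0503.

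Tns3 (chr11:8431652-8664535, minus strand), a tensin that binds the beta subunit tail, gave 288 and 285 CPM on soft at 0 h and 342 and 362 CPM at 2 h. On stiff it gave 345 and 309 CPM at 0 h and 387 and 407 CPM at 2 h. Within each substrate the times did not overlap, and at each time the soft libraries were below the stiff ones. The log2 fold change was 0.30 ± 0.050 on soft (edgeR adjusted p = 0.00042) and 0.28 ± 0.049 on stiff (edgeR adjusted p = 0.00049). The stiff call was lost without stiff 0 h replicate 2, at an adjusted p of 0.0744, in a range over alternatives from 3.67e-07 to 0.0744.

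Actn4 (chr7:28893248-28962340, minus strand), which crosslinks actin filaments, gave 140.0 and 142 CPM on soft at 0 h and 161 and 155 CPM at 2 h. On stiff it gave 139.5 and 148 CPM at 0 h and 172 and 178 CPM at 2 h. The 2 h libraries were higher on both substrates, and the test was passed on stiff, with a log2 fold change of 0.28 ± 0.050 (edgeR adjusted p = 0.00056), and not on soft, with 0.16 ± 0.051 (edgeR adjusted p = 0.12). Its relative Actn1 had log2 fold changes near 0 and was not called. Among members that did not pass, the fitted differences included -1.20 for Itgae (edgeR adjusted p = 0.086) and -0.50 for Itga7 on soft, and 0.67 for both Itga1 and Itga2b and 0.54 for Itgae on stiff, all genes with few counts.

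**Figure D2:**
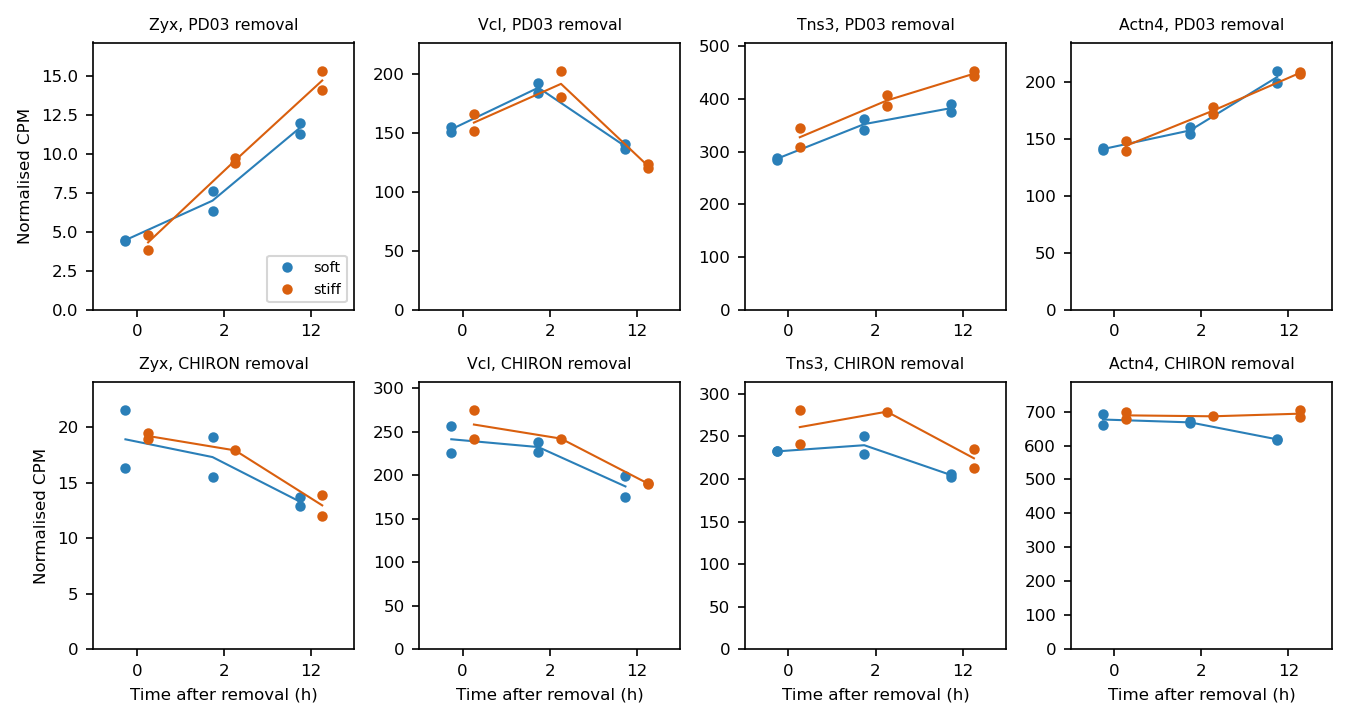
Normalised CPM of Zyx, Vcl, Tns3 and Actn4 at 0, 2 and 12 h after removal, with PD03 removal in the top panels and CHIRON removal below; points are libraries (soft blue, stiff orange), lines join group means, and the times are evenly spaced. After PD03 removal Zyx climbs from 3.83 to 4.81 CPM to 11.3 to 15.3 CPM, whereas Vcl rises to 181 to 203 CPM at 2 h and then falls to 120.3 to 140.4 CPM.

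By 12 h after PD03 removal integrin subunits were among the members called on both substrates. Of the 12 alpha subunits tested 5 rose and 1 fell on soft, and 6 rose and 1 fell on stiff. Of the 5 beta subunits 1 rose and 2 fell on soft, and 1 rose and 3 fell on stiff. Of the 5 kinases and adaptors 3 rose on each. On soft 15 of 33 tested members were called, 11 higher and 4 lower, where 29.4% of all genes were called, 14.1% higher and 15.3% lower. On stiff 19 were called, 12 higher and 7 lower, where 38.4% of all genes were called, 18.5% higher and 19.9% lower. The members' median was 0.01 on soft and 0.06 on stiff, against -0.00 for all genes in each. By role the median log2 fold changes on soft and stiff were 0.17 and 0.34 for the alpha subunits, -0.13 and -0.21 for the beta subunits, -0.00 and -0.04 for the 7 actin linkers, -0.20 and -0.19 for the 4 kindlin and Ilk genes and 0.27 and 0.47 for the kinases and adaptors.

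Among alpha subunits, Itga3 (chr11:95044474-95076801, minus strand), whose product pairs with Itgb1 to bind laminin, gave 16.8 and 17.3 CPM on soft at 0 h and 34.7 and 35.1 CPM at 12 h. On stiff it gave 18.8 and 19.1 CPM at 0 h and 40.7 and 44.5 CPM at 12 h. Its libraries at 0 and 2 h, between 16.8 and 20.8 CPM, lay far below those at 12 h. Its log2 fold change was 1.04 ± 0.093 on soft (edgeR adjusted p = 1.2e-09) and 1.16 ± 0.090 on stiff (edgeR adjusted p = 2.7e-11).

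Itga9, which pairs with Itgb1 to bind tenascin and osteopontin, went from 4.43 and 5.14 CPM to 9.56 and 10.2 CPM on soft. On stiff it went from 4.03 and 5.01 CPM to 13.2 and 14.8 CPM, so that the stiff libraries at 12 h stood above the soft ones. The log2 fold change was 1.05 ± 0.18 on soft (edgeR adjusted p = 5.3e-05) and 1.61 ± 0.18 on stiff (edgeR adjusted p = 2.1e-08).

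Itga1 (chr13:114953096-115101964, minus strand) was scarce, with 27 and 15 counts on soft at 0 h and 45 and 54 at 12 h, or 1.55 and 0.951 CPM against 3.09 and 3.52 CPM. On stiff it had 19 and 26 counts at 0 h and 73 and 56 at 12 h, or 1.23 and 1.28 CPM against 5.26 and 4.62 CPM. The groups did not overlap, and its log2 fold changes were 1.38 ± 0.31 on soft (edgeR adjusted p = 0.001) and 1.97 ± 0.29 on stiff (edgeR adjusted p = 3.7e-06), the largest fitted value among the tested members on stiff.

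Itga5 (chr15:103344286-103366763, minus strand) moved less, from 37.0 and 36.8 CPM to 50.1 and 53.8 CPM on soft and from 38.1 and 38.8 CPM to 51.1 and 50.1 CPM on stiff. Its log2 fold changes were 0.49 ± 0.074 (edgeR adjusted p = 8.3e-06) and 0.40 ± 0.075 (edgeR adjusted p = 0.00011). The abundant Itga6 rose by 0.23 ± 0.057 on soft (edgeR adjusted p = 0.0031) and by 0.21 on stiff (edgeR adjusted p = 0.0035), and the stiff call was lost without stiff 12 h replicate 1, at 0.0957 in a range over alternatives from 0.00105 to 0.0957. Itga10, a collagen receptor chain with 15 and 9 counts on stiff at 12 h against 4 and 7 at 0 h, passed on stiff alone, with a log2 fold change of 1.56 ± 0.58 (edgeR adjusted p = 0.033). It lost that call in 6 of 10 alternatives, among them each fit without a library of the comparison, with adjusted p from 0.0294 to 0.244. Itgav, the alpha chain that pairs with Itgb3 and Itgb5, went the other way, from 108 and 109 CPM to 91.9 and 91.0 CPM on soft and from 105 and 109.7 CPM to 88.5 and 77.3 CPM on stiff. Its log2 fold changes were -0.24 ± 0.062 (edgeR adjusted p = 0.0035) and -0.37 ± 0.063 (edgeR adjusted p = 3.1e-05).

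Among beta subunits, Itgb5 (chr16:33829665-33949338, plus strand), the vitronectin receptor chain, went from 79.4 and 93.4 CPM to 69.6 and 69.9 CPM on soft and from 81.7 and 82.7 CPM to 56.6 and 62.8 CPM on stiff. The 12 h libraries were below the 0 h libraries on each substrate. The log2 fold change was -0.31 ± 0.068 on soft (edgeR adjusted p = 0.00092) and -0.47 ± 0.070 on stiff (edgeR adjusted p = 5.1e-06), and without soft 0 h replicate 2 the soft value was 0.0848 in a range over alternatives from 3.96e-05 to 0.0848.

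Itgb1 (chr8:128685654-128733200, plus strand) changed little, from 170.5 and 177 CPM to 162 and 156 CPM on soft and from 189.8 and 194 CPM to 169 and 164 CPM on stiff. Its log2 fold change of -0.13 ± 0.048 on soft (edgeR adjusted p = 0.043) was past the threshold in only 1 of 10 alternatives, with adjusted p from 0.0441 to 0.274, while -0.21 ± 0.048 on stiff (edgeR adjusted p = 0.0012) kept its call in each alternative run. Itgb3 (chr11:104608000-104670476, plus strand), which with Itgav forms a receptor for vitronectin and fibronectin, went from 6.04 and 6.23 CPM to 3.89 and 3.13 CPM on stiff and from 5.35 and 6.66 CPM to 4.33 and 4.49 CPM on soft. It passed on stiff, at -0.80 ± 0.21 (edgeR adjusted p = 0.0037), and not on soft, at -0.44 ± 0.20 (edgeR adjusted p = 0.10). Without stiff 12 h replicate 2 the stiff value was 0.0612, in a range over alternatives from 0.000547 to 0.0612. Itgb7, known best from lymphocytes, was the only beta subunit that rose, from 3.91 and 5.64 CPM to 8.80 and 9.12 CPM on soft and from 4.03 and 5.64 CPM to 8.50 and 10.6 CPM on stiff. Its log2 fold changes were 0.91 ± 0.19 (edgeR adjusted p = 0.0006) and 0.96 ± 0.19 (edgeR adjusted p = 0.00022). The summed leukocyte markers given above were higher at 12 h as well, but the sum does not show which markers carried it. Of other leukocyte integrin subunits, Itgb2, Itgam and Itgax had at most 7, 9 and 2 counts in any library of this experiment, and Itgal 78 to 119. The part of the leukocyte markers in this change was not tested.

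On the cytoplasmic side, Zyx rose further, to 12.0 and 11.3 CPM on soft and 15.3 and 14.1 CPM on stiff. Its log2 fold change against 0 h was 1.38 ± 0.16 on soft (edgeR adjusted p = 1.1e-07) and 1.78 ± 0.16 on stiff (edgeR adjusted p = 3.3e-10), or 2.60-fold and 3.44-fold. Actn4 reached 209.7 and 199 CPM on soft and 209 and 207 CPM on stiff, a log2 fold change of 0.53 ± 0.049 on both (edgeR adjusted p = 2e-09 and 1.1e-09). Tns3 reached 389 and 376 CPM on soft and 453 and 443 CPM on stiff, or 0.42 ± 0.050 (edgeR adjusted p = 1.9e-07) and 0.45 ± 0.049 (edgeR adjusted p = 2.1e-08). All 3 kept these calls in each alternative run.

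Bcar1, a scaffold phosphorylated by Src, rose from 35.6 and 36.1 CPM to 53.7 and 47.7 CPM on soft and from 37.6 and 38.4 CPM to 52.4 and 53.7 CPM on stiff, with log2 fold changes of 0.50 ± 0.078 and 0.48 ± 0.078 (edgeR adjusted p = 1.5e-05 in each). Pxn (paxillin) rose by 0.27 ± 0.077 on soft (edgeR adjusted p = 0.0098) and by 0.47 ± 0.076 on stiff (edgeR adjusted p = 1.7e-05). Its soft call was lost without soft 0 h replicate 1 or soft 12 h replicate 2, at 0.11 or 0.175, in a range over alternatives from 0.00785 to 0.175. The kinases Src and Ptk2 (focal adhesion kinase) were not called, with log2 fold changes from -0.01 to 0.09.

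Lims1 (PINCH) and Parva (parvin), the partners of Ilk, were the members of the kindlin and Ilk group that fell. Lims1 went from 127 and 122 CPM to 102 and 95.5 CPM on soft and from 119.5 and 115 CPM to 95.2 and 101 CPM on stiff, with log2 fold changes of -0.34 ± 0.054 (edgeR adjusted p = 2.1e-05) and -0.25 ± 0.055 (edgeR adjusted p = 0.00057). Parva passed on stiff alone, at -0.50 ± 0.16 (edgeR adjusted p = 0.016) against -0.30 ± 0.16 on soft (edgeR adjusted p = 0.16). Its stiff call was lost without stiff 0 h replicate 2 (0.157), without stiff 12 h replicate 1 (0.225) and with DESeq2 (0.0692), in a range over alternatives from 0.0102 to 0.225. Ilk itself and the kindlin Fermt2 were not called, at -0.01 and -0.12 for Ilk and -0.10 and -0.07 for Fermt2. Tln1, Tln2, Actn1 and Tns1 were not called either, with log2 fold changes from -0.09 to 0.06. Among the scarce alpha subunits, Itga7 had the largest fitted fall that did not pass, -1.29 on stiff (edgeR adjusted p = 0.056).

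**Figure D3:**
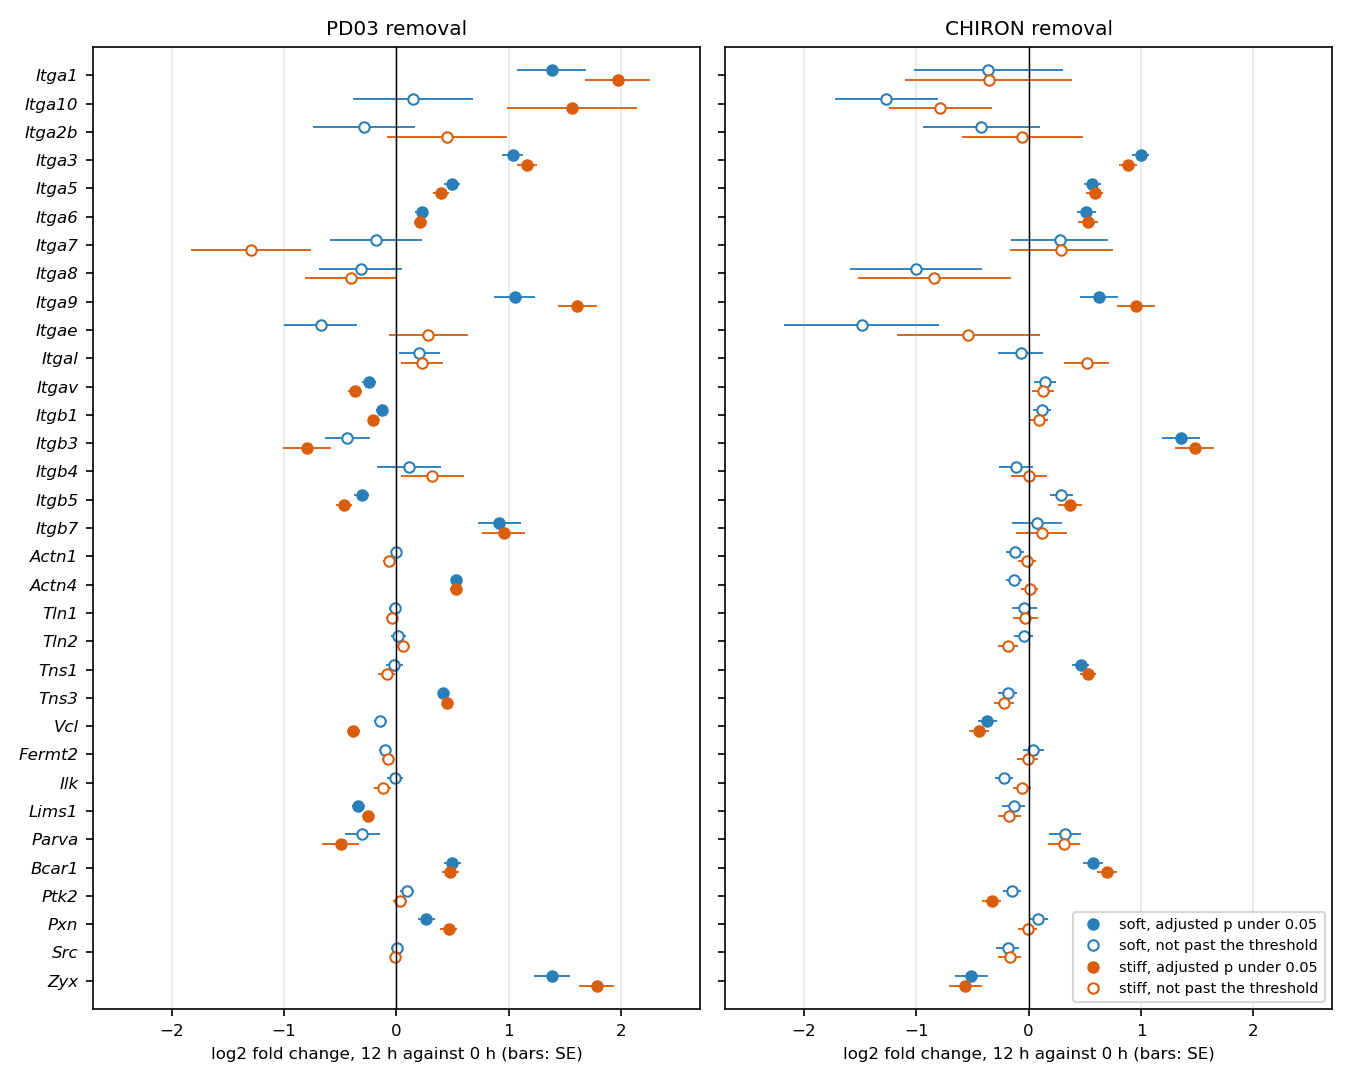
Log2 fold change of the 33 members tested in both experiments, 12 h against 0 h, after PD03 removal on the left and CHIRON removal on the right; bars are standard errors, blue is soft and orange is stiff, and filled points passed the edgeR threshold. Itga3, Itga5, Itga6, Itga9 and Bcar1 are higher in all 4 comparisons, while Zyx is at 1.38 and 1.78 after PD03 removal and at -0.51 and -0.56 after CHIRON removal.

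Vcl, which had risen at 2 h, was low at 12 h. From 184 and 193 CPM at 2 h it was at 137 and 140.4 CPM at 12 h on soft, and from 181 and 203 CPM it was at 120.3 and 124 CPM on stiff. On both substrates its 12 h libraries lay below its 0 h libraries as well as its 2 h libraries. Against 0 h the log2 fold change at 12 h was -0.14 on soft (edgeR adjusted p = 0.052) and -0.38 ± 0.057 on stiff (edgeR adjusted p = 3.9e-06). A direct comparison of 12 h with 2 h, added after this pattern was seen, gave -0.44 ± 0.056 on soft (edgeR adjusted p = 5.6e-07) and -0.65 ± 0.057 on stiff (edgeR adjusted p = 4.4e-10).

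In that comparison 16 members were called on soft, 10 higher and 6 lower, where 31.4% of all genes were called, 15% higher and 16.4% lower, and 21 on stiff, 12 higher and 9 lower, where 37.5% were called, 18% higher and 19.4% lower. Zyx was still higher at 12 h than at 2 h, by 0.73 ± 0.15 on soft (edgeR adjusted p = 0.00054) and 0.62 ± 0.14 on stiff (edgeR adjusted p = 0.001), and Actn4 by 0.38 and 0.25. Tns3 was higher by 0.17 on stiff (edgeR adjusted p = 0.0063) and by 0.12 on soft (edgeR adjusted p = 0.065). Tln1, which had passed no test against 0 h, was lower than at 2 h by 0.18 on both substrates (edgeR adjusted p = 0.017 and 0.014). Itgb1 was lower by 0.26 on soft and 0.29 on stiff, Itgav by 0.23 and 0.33, Itgb3 by 0.83 and 0.70, and Lims1 by 0.31 and 0.26. Itga3 was higher by 0.85 and 1.13, Itga5 by 0.33 and 0.22, Itga6 by 0.19 and 0.15, Itgb7 by 0.81 and 1.00, Bcar1 by 0.44 and 0.34 and Pxn by 0.21 and 0.44. On stiff alone, Actn1 was lower by 0.13, Itgb5 by 0.38 and Parva by 0.54. The largest differences were in scarce alpha subunits, 1.55 for Itga1 and 1.18 for Itga9 on soft, and 1.55 for Itga10, 1.29 for Itga1 and 1.17 for Itga9 on stiff.

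Single libraries decided part of these calls. In every fit without a library, 11 of the 16 calls on soft and 13 of the 21 on stiff were kept. On soft, leaving out 2 h replicate 2 ended the calls of Itga6, Itgav, Itgb3, Pxn and Tln1 (edgeR adjusted p from 0.0885 to 0.191), and leaving out 2 h replicate 1 that of Pxn (0.0833). Without soft 12 h replicate 1 those of Itga6 (0.0564) and Tln1 (0.435) were lost, and without soft 12 h replicate 2 those of Itga6 (0.0509) and Pxn (0.371). On stiff, the calls of Actn1, Itga10, Itga5, Itga6, Parva and Tns3 were lost without 12 h replicate 1 (0.0607 to 0.355), and those of Itga10, Itga5, Itgb3 and Tln1 without 12 h replicate 2 (0.0617 to 0.122). Those of Actn1, Itga10, Itga5, Itga6 and Tns3 were lost without stiff 2 h replicate 1 (0.0765 to 0.565), and those of Actn1, Itga10, Itgb3, Parva and Tln1 without stiff 2 h replicate 2 (0.0858 to 0.225). DESeq2 ended the calls of Pxn on soft (adjusted p = 0.11) and Actn1, Itga5 and Itga6 on stiff (0.0672 to 0.0851). Fits of all genes ended those of Tln1 on soft (edgeR adjusted p = 0.0501) and Actn1 (0.086) and Itga10 (0.0507) on stiff. Without the low-count filter, those of Pxn on soft (0.0598) and Itga10 on stiff (0.0772) were lost. Fits of only the groups compared lost Pxn on soft (0.0547) and Actn1 (0.0653) and Itga6 (0.0727) on stiff.

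The CHIRON removal experiment asks the same of the members when GSK3 is released and MEK stays inhibited. Libraries of a group varied more here. The fitted coefficient of variation beyond counting error was 0.0797, against 0.0386 in the PD03 removal experiment. Its part in the lower number of calls was not tested. At 2 h edgeR called 0 of 36 tested members on soft, where 0.226% of all genes were called, and 0 on stiff, where 0.103% were called. DESeq2 called 0 in each as well, and at an unadjusted p under 0.05 edgeR had 2 members on soft (Itgal and Itga2b) and 4 on stiff (Itgb3, Itga7, Tns1 and Src), against 1328 and 1019 of 14615 genes. Of the genes that rose 2 h after PD03 removal, Zyx was at 19.1 and 15.5 CPM on soft against 21.5 and 16.3 CPM at 0 h, and Vcl at 227 and 238 CPM against 226 and 257 CPM. These libraries overlapped. The largest fitted differences belonged to low-count genes, 1.26 for Itga2b, -1.14 for Itga1 and -0.94 for Fermt1 on soft, and 1.13 for Itga7, 0.93 for Itga2b and 0.57 for Itga1 on stiff.

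At 12 h after CHIRON removal Itgb3 and 4 alpha subunits rose on both substrates, and Vcl and Zyx fell on both. On soft 9 of 36 members were called, 7 higher and 2 lower, where 17.8% of all genes were called, 9.18% higher and 8.63% lower. On stiff 11 were called, 8 higher and 3 lower, where 16.8% were called, 8.46% higher and 8.33% lower. The members' median was -0.06 on soft and -0.00 on stiff, against -0.01 for all genes in each. With the shallow library added to the fit, the calls fell to 2 on soft (Itga3 and Itgb3) and 1 on stiff (Itgb3). Over all genes the calls fell too, to 457 on soft and 461 on stiff of 14391 genes, from 2603 and 2455 of 14615. In that fit Itga3 on stiff had an edgeR adjusted p of 0.0604, in a range over its alternatives from 3.33e-20 to 0.0604.

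Itgb3 gave 5.61 and 5.33 CPM on soft at 0 h and 12.3 and 15.9 CPM at 12 h. On stiff it gave 5.05 and 4.18 CPM at 0 h and 12.8 and 12.9 CPM at 12 h. Every 12 h library was above every 0 h and 2 h library, the highest of which was 6.53 CPM. The log2 fold change was 1.35 ± 0.17 on soft (edgeR adjusted p = 1.6e-05) and 1.48 ± 0.18 on stiff (edgeR adjusted p = 1e-05), and it kept its calls in each alternative run, with adjusted p up to 0.0327. Itgb5 was higher too, from 24.1 and 21.7 CPM to 27.9 and 31.2 CPM on stiff, by 0.37 ± 0.10 (edgeR adjusted p = 0.021), and by 0.29 ± 0.10 on soft (edgeR adjusted p = 0.061). Its stiff call was lost without stiff 0 h replicate 2 (0.144) or stiff 12 h replicate 2 (0.197), in a range over alternatives from 0.0196 to 0.241. Itgb1 was not called, at 0.12 on soft and 0.09 on stiff.

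Itga3 rose from 62.8 and 68.7 CPM to 129.7 and 133 CPM on soft and from 71.9 and 70.4 CPM to 134 and 129 CPM on stiff. Its log2 fold changes were 1.00 ± 0.077 (edgeR adjusted p = 6.7e-08) and 0.88 ± 0.077 (edgeR adjusted p = 2.8e-07). Itga5 went from 126 and 119.7 CPM to 178 and 186 CPM on soft and from 116 and 129 CPM to 186 and 184 CPM on stiff, or 0.57 ± 0.075 and 0.59 ± 0.075 (edgeR adjusted p = 3.1e-05 and 2.2e-05). Itga6 rose by 0.52 ± 0.088 and 0.53 ± 0.089 (edgeR adjusted p = 0.00046 and 0.00037), with no overlap between 0 h libraries of 98.7 to 110.1 CPM and 12 h libraries of 143 to 157 CPM. Itga9 rose by 0.63 ± 0.17 on soft (edgeR adjusted p = 0.014) and 0.95 ± 0.17 on stiff (edgeR adjusted p = 0.00061). Its soft call was lost without soft 0 h replicate 2 (0.155) or soft 12 h replicate 2 (0.0706), in a range over alternatives from 0.00488 to 0.54. The 3 alpha subunits Itga3, Itga5 and Itga6 kept their calls in every fit that left out a library.

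**Figure D4:**
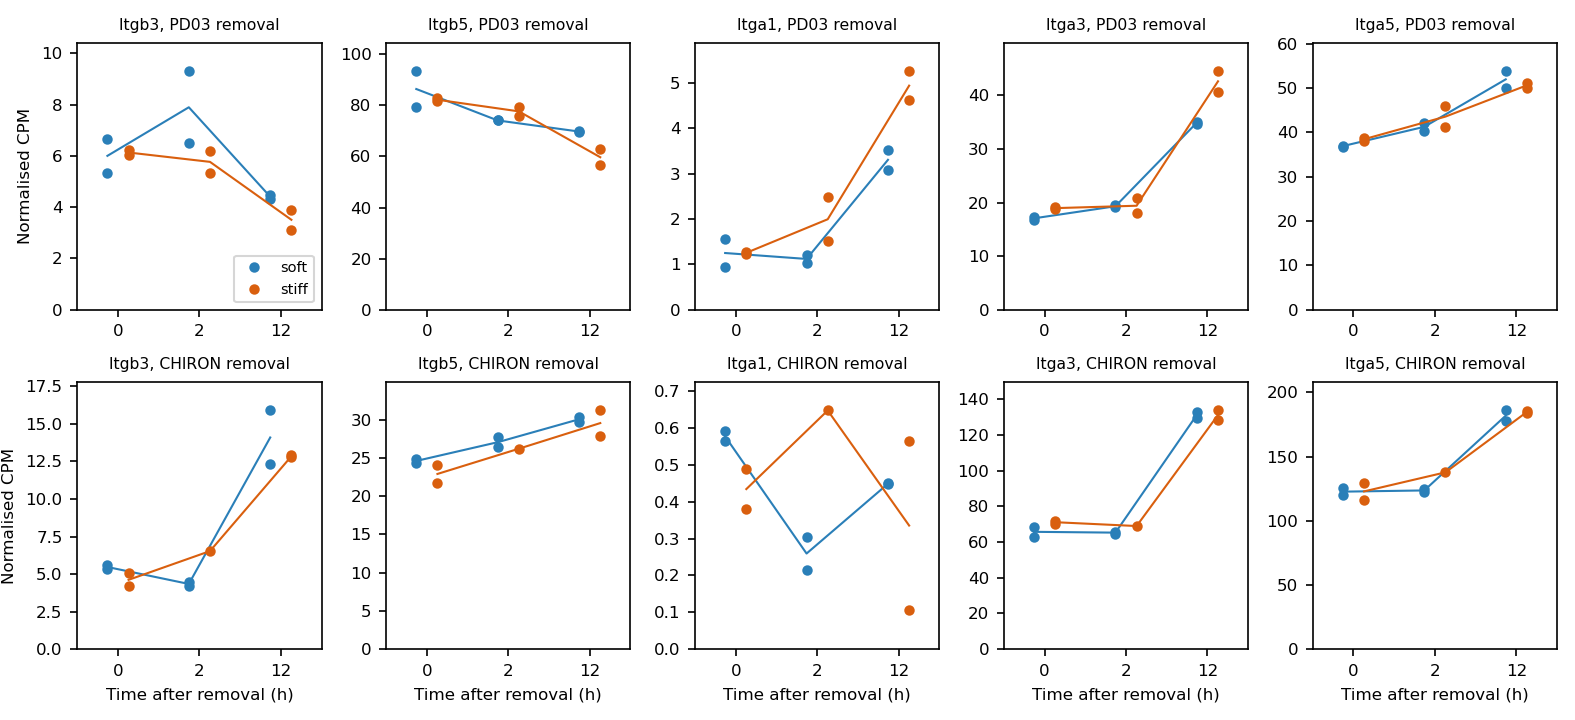
Normalised CPM of Itgb3, Itgb5, Itga1, Itga3 and Itga5 at 0, 2 and 12 h, with PD03 removal in the top panels and CHIRON removal below; points are libraries (soft blue, stiff orange), lines join group means, and the times are evenly spaced. Itgb3 ends at 3.13 to 4.49 CPM after PD03 removal and at 12.3 to 15.9 CPM after CHIRON removal, while Itga3 and Itga5 end higher in both experiments.

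Among linkers and adaptors, Tns1 rose from 139 and 151 CPM to 204 and 196 CPM on soft and from 142 and 141 CPM to 203 and 204 CPM on stiff, by 0.46 ± 0.072 (edgeR adjusted p = 0.00019) and 0.53 ± 0.073 (edgeR adjusted p = 5e-05). Bcar1 rose by 0.57 ± 0.090 (edgeR adjusted p = 0.00021) and 0.70 ± 0.091 (edgeR adjusted p = 2.7e-05). Both kept their calls when any 1 of the 4 libraries compared on a substrate was left out, and lost them with the shallow library added.

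Zyx fell from 21.5 and 16.3 CPM to 12.9 and 13.7 CPM on soft and from 19.5 and 18.9 CPM to 13.9 and 12.0 CPM on stiff. The 12 h libraries were the lowest on each substrate. The log2 fold changes were -0.51 ± 0.15 (edgeR adjusted p = 0.022) and -0.56 ± 0.15 (edgeR adjusted p = 0.013). On soft the call was lost without 0 h replicate 1 (0.361), 12 h replicate 1 (0.128) or 12 h replicate 2 (0.0546), in a range over alternatives from 0.00416 to 0.361, and on stiff without 0 h replicate 1 (0.0549) or 12 h replicate 2 (0.149), in a range from 0.00108 to 0.287.

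Vcl fell from 226 and 257 CPM to 199 and 176 CPM on soft and from 242 and 275 CPM to 191 and 190.2 CPM on stiff, by -0.37 ± 0.088 (edgeR adjusted p = 0.0073) and -0.44 ± 0.088 (edgeR adjusted p = 0.0018). The soft call was lost without soft 0 h replicate 2 (0.136) or soft 12 h replicate 2 (0.0897), in a range over alternatives from 0.000828 to 1. Ptk2 fell on stiff, by -0.33 ± 0.082 (edgeR adjusted p = 0.0094), with -0.15 ± 0.082 on soft (edgeR adjusted p = 0.24). That stiff call was lost without stiff 0 h replicate 2 (0.0873) or stiff 12 h replicate 2 (0.0953), in a range over alternatives from 0.0103 to 0.414. The largest fitted falls that did not pass were -1.62 and -1.35 for the kindlin Fermt1, and -1.49 for Itgae on soft, in genes of few counts.

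The 2 responses were then compared directly, as the 12 h change after PD03 removal minus that after CHIRON removal, averaged over the substrates, in 1 fit of 23 libraries. Of 36 members tested 16 differed, 9 higher and 7 lower, where 36.1% of 14759 genes differed, 18.6% higher and 17.5% lower. The members' median difference was 0.15, against 0.01 for all genes. Zyx and Itgb3 were at the ends: Zyx differed by 2.12 ± 0.16 (edgeR adjusted p = 2.2e-11), having risen after PD03 removal and fallen after CHIRON removal, and Itgb3 by -2.03 ± 0.19 (edgeR adjusted p = 2.3e-09), having fallen on stiff after PD03 removal and risen on both substrates after CHIRON removal. All 16 calls were kept in every fit without a library.

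On the side of PD03 removal, Itga1 differed by 2.03 ± 0.47 (edgeR adjusted p = 0.0013), Itga10 by 1.88 ± 0.51 (0.0051), Itgb7 by 0.85 ± 0.21 (0.0023), Tns3 by 0.64 ± 0.072 (7.4e-08) and Actn4 by 0.59 ± 0.057 (4.2e-09). Itga9, Pxn and Ptk2 differed by 0.54, 0.33 and 0.30. Itga1 and Itga10 rest on few counts, with at most 14 counts for Itga1 in any CHIRON removal library.

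On the side of CHIRON removal, Itgb5 differed by -0.72 ± 0.084 (edgeR adjusted p = 1.3e-07), Parva by -0.72 ± 0.15 (0.00038), Tns1 by -0.55 ± 0.072 (8e-07), Itgav by -0.44 ± 0.087 (0.0002), Itga6 by -0.30 ± 0.078 (0.003) and Itgb1 by -0.28 ± 0.068 (0.0021). Itga3 at 0.16 (edgeR adjusted p = 0.10), Itga5 at -0.13 (0.14), Bcar1 at -0.15 (0.19) and Vcl at 0.14 (0.17) were not called. With the shallow library added, the calls of Actn4 (0.655), Itga6 (0.136), Itga9 (0.195), Itgb1 (0.441), Parva (0.534) and Tns3 (0.352) were lost, each value the highest over 23 alternatives, while Zyx, Itgb3, Itgb5 and Tns1 were among the 10 kept.

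The comparison of soft with stiff asks whether the members' expression follows the stiffness of the gel. After 12 h on the gels in 2i+LIF edgeR called 0 of 33 members in the PD03 removal experiment, where 0.0298% of all genes were called, and DESeq2 called 0. At an unadjusted p under 0.05 there were 3 members and 970 of 13405 genes. At 2 h edgeR and DESeq2 called 0 members, where 0.134% of all genes were called by edgeR, and 9 members and 1151 genes had an unadjusted p under 0.05. At 12 h Tns3 alone was called, lower on soft, where 0.776% were called in either direction and 0.485% lower. Averaged over the 3 times, Tns3 and Itgb1 were called, both lower on soft, where 1.89% of all genes were called and 1.04% lower. An unadjusted p under 0.05 was reached by 11 members and 1296 genes at 12 h, and by 11 members and 1770 genes on average. The members' median difference averaged over the times was -0.03, against 0.00 for all genes.

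Tns3 was lower on soft at each time, at 288 and 285 CPM against 345 and 309 CPM at 0 h, 342 and 362 CPM against 387 and 407 CPM at 2 h, and 389 and 376 CPM against 453 and 443 CPM at 12 h. No soft library reached a stiff library of its time. The differences were -0.19 ± 0.050 (edgeR adjusted p = 0.27), -0.17 ± 0.050 (0.23) and -0.23 ± 0.049 (0.016), and -0.20 ± 0.029 when averaged (edgeR adjusted p = 0.00018). The averaged call was kept in each of 17 alternatives, with adjusted p up to 0.00159. The 12 h call was lost without soft 12 h replicate 1 (0.0716) or 2 (0.272) and without stiff 12 h replicate 1 (0.222) or 2 (0.116), in a range over alternatives from 0.000576 to 0.272.

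Itgb1 was at 170.5 and 177 CPM on soft and 189.8 and 194 CPM on stiff at 0 h, and its averaged difference was -0.10 ± 0.028 (edgeR adjusted p = 0.046). That call was lost without any library other than stiff 2 h replicate 1, with adjusted p from 0.0542 to 0.156, and with DESeq2 at 0.0662, in a range over alternatives from 0.0358 to 0.156. At 12 h the next largest differences relative to their error were Itga3 at -0.29 ± 0.085 (edgeR adjusted p = 0.13), Vcl at 0.19 ± 0.058 (0.17), Itgb5 at 0.23 ± 0.072 (0.18) and Itga9 at -0.49 ± 0.16 (0.19). The largest fitted values were in scarce genes, 1.41 for Itga7 at 12 h, -0.99 for Itgae and -0.83 for Itga1 at 2 h, and 0.96 for Itga10 and 0.92 for Itga2b at 0 h.

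**Figure D5:**
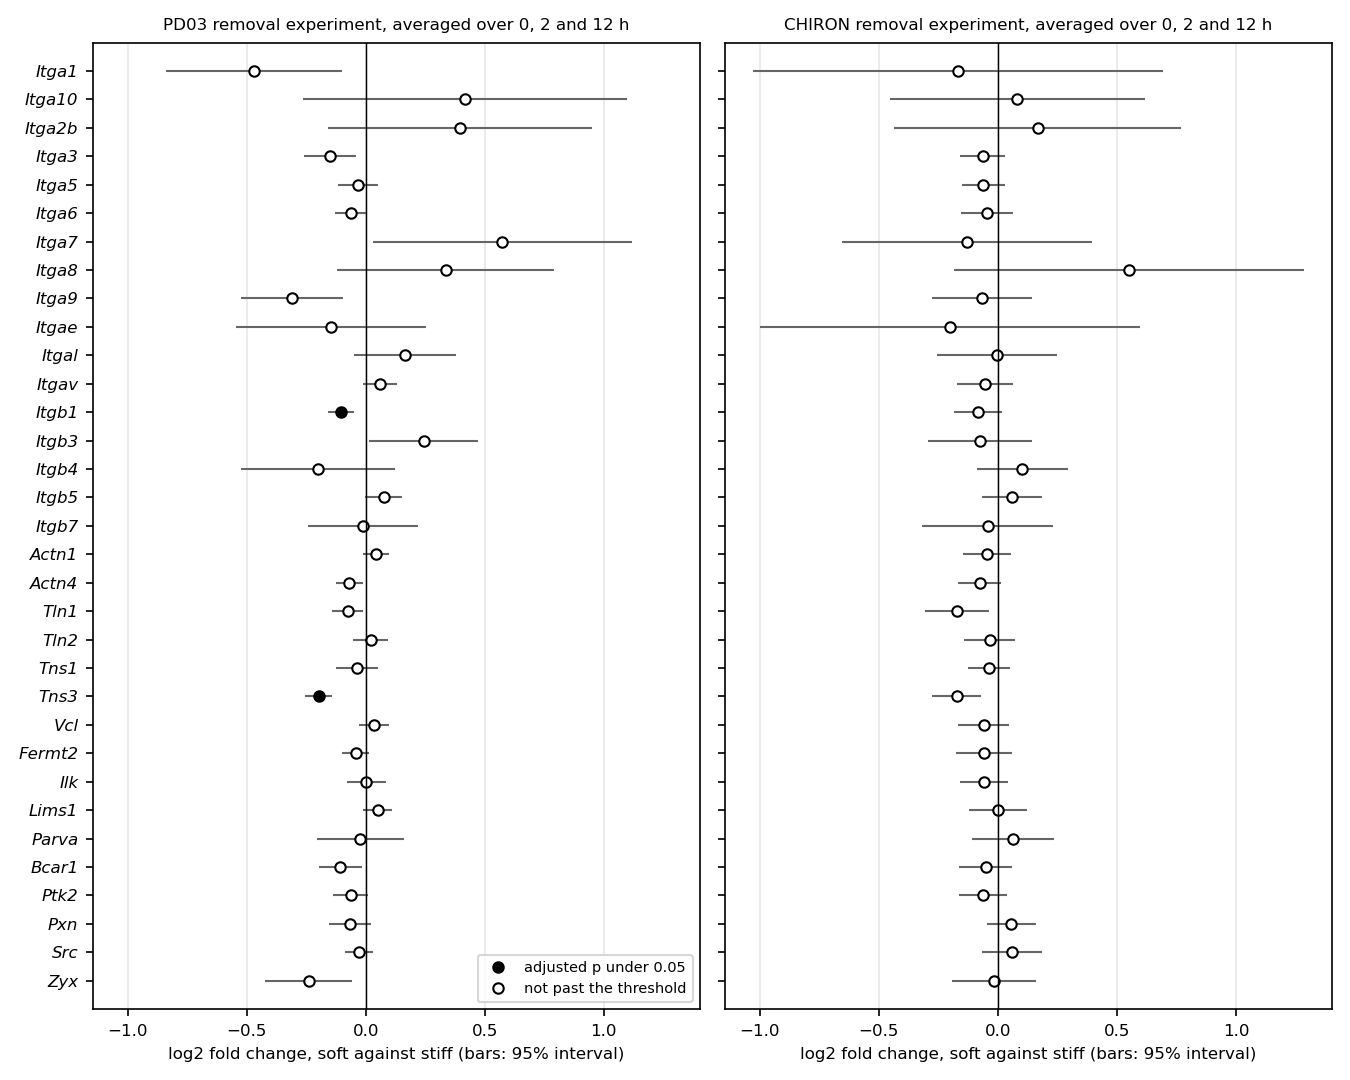
Log2 fold change of soft against stiff, averaged over 0, 2 and 12 h, for the 33 members tested in both experiments; bars are 95% intervals and filled points passed the edgeR threshold. Tns3 is at -0.20 in the PD03 removal experiment and -0.17 in the CHIRON removal experiment, where no point is filled.

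In the CHIRON removal experiment 0 of 36 members were called at 0, 2 and 12 h and on average by edgeR, where 0% of all genes were called, and 0 by DESeq2. Over all genes 471 to 1025 had an unadjusted p under 0.05 in these comparisons. The larger spread between libraries of this experiment, given above, applies here as well. Other genes did pass in some alternatives, up to 100 on average without the filter on low counts, 30 at 2 h with only the groups compared, and 12 to 15 at 0 h or on average without soft 12 h replicate 1, stiff 0 h replicate 1 or stiff 0 h replicate 2, and the members called stayed at 0 in each. At an unadjusted p under 0.05 there were 0, 2 and 1 members at the 3 times and 2 on average, Tns3 and Tln1. Tns3 was at 232 and 233 CPM on soft against 242 and 281 CPM on stiff at 0 h, and at 206 and 203 CPM against 235 and 213 CPM at 12 h. Its soft libraries were again below its stiff libraries at each time. The averaged difference was -0.17 ± 0.053, with a 95% interval from -0.28 to -0.07 (edgeR adjusted p = 0.68), and that of Itgb1 was -0.08 with an interval from -0.18 to 0.02 (edgeR adjusted p = 0.74).

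Whether the 12 h response itself differed between the gels was tested as an interaction. After PD03 removal edgeR called 0 of 33 members, where 0% of all genes were called and 899 had an unadjusted p under 0.05. DESeq2 called 0, and 2 members were at an unadjusted p under 0.05. These were Vcl, whose change on soft exceeded that on stiff by 0.24 ± 0.080 (edgeR adjusted p = 0.57, 95% interval 0.08 to 0.40), and Itga9, at -0.56 ± 0.26 (edgeR adjusted p = 0.71). Zyx had -0.40 ± 0.23, with an interval from -0.85 to 0.05. After CHIRON removal edgeR and DESeq2 called 0 of 36 members and 0% of all genes. At an unadjusted p under 0.05 edgeR had 0 members and 415 of 14615 genes.

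Other genes of the adhesion machinery, 70 adhesome genes that are no members, moved in both directions. At 2 h after PD03 removal 2 of 61 tested passed on soft, Kank2 at -0.25 and Flna at 0.21, where 1.96% of all genes were called, and 4 passed on stiff, 3 of them higher, where 2.73% were called. At 12 h 16 rose and 12 fell on soft, and 15 rose and 15 fell on stiff, with medians of 0.08 and 0.03, where 29.4% and 38.4% of all genes were called. Kank2, which binds talin, fell by -0.44 ± 0.05 on soft (edgeR adjusted p = 3.3e-08) and -0.58 ± 0.05 on stiff (1.3e-10). Ptk2b, the kinase related to Ptk2, rose by 1.00 ± 0.12 and 1.23 ± 0.12, and Fblim1, which binds kindlin and filamin, by 0.42 ± 0.06 and 0.57 ± 0.06. After CHIRON removal 66 were tested, and at 12 h 11 rose and 8 fell on soft and 8 rose and 7 fell on stiff, with medians of 0.04 and -0.04, where 17.8% and 16.8% of all genes were called. Kank4 rose by 0.97 ± 0.09 and 1.05 ± 0.09, and Fblim1 fell by 0.63 on soft. Between the removals 31 of 65 differed, 17 higher and 14 lower, where 36.1% of all genes did, led by Parvb, a parvin like Parva, at 1.40 ± 0.09 (edgeR adjusted p = 4.1e-12).

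Genes for integrin ligands, 27 in the list, gave opposite values for some of the same genes in the 2 experiments. At 2 h after PD03 removal Icam1, a ligand of leukocyte integrins, rose on both substrates by 0.24 and 0.26, and Fn1 (fibronectin) and Lamc1 (a laminin chain) rose on stiff by 0.22 and 0.20, of 20 genes tested, where 1.31% of all genes rose on soft and 1.84% on stiff. At 12 h 1 rose and 7 fell on soft, and 3 rose and 7 fell on stiff, with medians of -0.08 and 0.06, where 15.3% and 19.9% of all genes fell and 14.1% and 18.5% rose. Spp1 (osteopontin) fell by -0.42 ± 0.04 on soft (edgeR adjusted p = 1.6e-09) and -0.68 ± 0.04 on stiff (4e-14), and Lama1 by -0.61 and -0.50, whereas Lama5 rose by 0.32 and 0.42. At 12 h after CHIRON removal 5 rose and 2 fell of 23 on soft, and 4 rose and 2 fell on stiff, with medians of 0.19 and 0.21, where 17.8% and 16.8% of all genes were called. There Spp1 rose by 0.72 ± 0.08 and 0.54 ± 0.08, Mfge8 by 0.59 and 0.53, and Col4a1 (a collagen chain) by 0.99 and 0.91. The direct test gave -1.18 ± 0.06 for Spp1 (edgeR adjusted p = 6.3e-14) and -0.85 ± 0.07 for Mfge8 (1.4e-10). Of 23 ligand genes in that test 2 were higher and 6 lower, where 18.6% and 17.5% of all genes were.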

How the data were processed

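The authors depleted ribosomal RNA, made Nextflex libraries, trimmed reads with Trim Galore, aligned them with TopHat2 2.1.0 to mm10 (GRCm38) and counted them per gene with featureCounts 1.5.0 and Ensembl 86; the deposited values are raw counts, with 1 table per experiment. The strand setting and the origin of the replicates are not given in the sources used here. Reads of a gene and its antisense partner may therefore be mixed, and p-values measure only the spread between these libraries. The paper describes both removal experiments as done in triplicate, whereas the samples used here hold 2 libraries a group. The PD03 removal table held 12 columns of other samples, not used here. It had 23 empty lines and 15 identifiers that look like dates.

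Members and gene lists were chosen with earlier results of these data known. Every called member and the members with the highest level were named. The 3 largest absolute log2 fold changes were named for comparisons of times and of the removals, but not for every soft against stiff or interaction test. Protein-coding genes (19287 and 21695 entries by GENCODE M21) were tested with edgeR 4.0.16 in R 4.3.3: TMM scaling, filterByExpr with a minimum count of 10 and minimum total of 15, quasi-likelihood tests over all groups of an experiment, and Benjamini-Hochberg adjustment over all genes at 0.05. The fits were first tested on simulated data. Standard errors were derived from the log2 fold change and the F statistic, and intervals span 1.96 SE. CPM use protein-coding library sizes times the TMM factor; per kilobase means merged exons. In the CHIRON removal table Itgam stands on 2 lines with different identifiers, 1 of them with 1 count. Alternatives were DESeq2 1.42.0, its size factors in edgeR, all genes, no filter on low counts, only the groups compared, a block for the replicate number, each library left out, and the shallow library added. Promoters came from the RefSeq table of GRCm38.p6. Plots used matplotlib 3.10.9.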

Additional observations from a re-analysis of the deposited data

Results flagged for a closer look

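For 3 members, all libraries of soft and all those of stiff moved in opposite directions in CPM. How often this occurred over all genes was not counted, so the number says nothing particular about the members. Itgae, an integrin of epithelial lymphocytes, had a log2 fold change of 0.28 on stiff and -0.67 on soft 12 h after PD03 removal, from 1.17 and 1.57 CPM to 1.66 and 1.73 CPM on stiff and from 2.53 and 2.16 CPM to 1.38 and 1.56 CPM on soft. Before scaling to library size the stiff libraries overlapped, with 18 and 32 counts before removal against 23 and 21 after it. The difference of -0.95 had an edgeR adjusted p of 0.76.

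Itga1 had 0.57 on stiff and -1.14 on soft 2 h after CHIRON removal, from 7 and 9 counts to 14 on stiff and from 12 and 13 to 5 and 4 on soft. Itgb3 had 0.50 on stiff and -0.33 on soft in the same comparison, with 141 counts in the stiff 2 h library and 73 and 79 in the soft ones. For Itga1 and Itgb3 the difference between the substrates in the 2 h response was not tested, and stiff 2 h was a single library. The direct comparison of soft with stiff at 2 h gave -1.31 for Itga1 (edgeR adjusted p = 0.84) and -0.59 for Itgb3 (edgeR adjusted p = 0.82).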

How the results depend on the processing

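Of 117 member calls, none changed direction in any alternative run; DESeq2 kept 107, its size factors in edgeR 116, all genes 110, no filter on low counts 113, the replicate block 117, and fits without 1 library 595 of 676. Fits of only the groups compared kept 110 of 115, and with the shallow CHIRON library added 13 of 36 were kept. Counts of called members moved by over 1.5 times as follows. Without the low-count filter, soft against stiff after PD03 removal went from 0 to 1 at 0 h and from 0 to 1 at 2 h, and 2 h on soft from 3 to 6. Over all genes the calls in these fits went from 4 to 29, from 18 to 73 and from 263 to 388. The cause was not tested. The average over times went from 2 to 1 with DESeq2 and with all genes. The total of genes called there went from 253 to 176 and to 203. With the shallow library added, 12 h after CHIRON removal went from 9 to 2 on soft and from 11 to 1 on stiff, and the difference between removals from 16 to 10. Over all genes the calls in these fits went from 2603 to 457, from 2455 to 461 and from 5326 to 2544. Leaving out 1 library gave 0 to 0 for soft against stiff at 12 h, 1 to 3 for the average, 1 to 3 at 2 h on soft, 3 to 4 at 2 h on stiff, 13 to 14 and 16 to 18 at 12 h, 11 to 15 and 15 to 17 for 12 h against 2 h, 7 to 8 and 8 to 11 after CHIRON removal, and 16 to 18 for the difference. Libraries with the same replicate number showed no shared shift on average. The mean correlation of same-numbered deviations was -0.0025 over 15 pairs (from -0.053 to 0.113) and -0.0198 over 10 pairs (from -0.109 to 0.071). This cannot tell whether such libraries were cultured or prepared together. The replicate block gave 16 calls in place of 15 at 12 h on soft and the same counts elsewhere. Fits of only the groups compared were not run for the averages, which use all groups, and the lone stiff 2 h library could not be left out. Low counts, at most 15 a library for Itga10 after PD03 removal and at most 9 for the members tested in neither experiment, limit what 2 libraries a group can show.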
